A study of Mus musculus with 20 samples.

Results

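Small intestine of 2-week-old mouse pups born to dams with periodontitis, an inflammation of the tissue that holds the teeth, was compared with that of 2-week-old pups born to control dams. The comparison takes 5 libraries of pups of dams with periodontitis (periodontitis libraries 1 to 5) and 5 libraries of pups of control dams (control libraries 1 to 5), which are 10 of the 20 bulk polyA RNA libraries of the series. The other 10 libraries are the same kinds of pups at 7 weeks. The condition was that of the dam, and the sources used here give no strain, sex, litter, number of dams, segment of the intestine or number of pups per library. The labels name no allele and no agent, and they do not say how periodontitis was brought about. Libraries of a group are taken as independent samples, so the p-values measure the spread between these libraries, which may in part lie between litters.

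At this age a mouse pup still lives on milk. Its enterocytes take up milk proteins and maternal antibody whole, by receptors and coated pits at the cell surface, and break down the proteins in large lysosomes. Around weaning this uptake ends, and enzymes for solid food, such as sucrase-isomaltase and the brush border peptidases, take over, a change in which glucocorticoid hormone and several transcription factors take part.

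Depth ran from 14.9 to 39.6 M counts in the control libraries and from 32.1 to 42.6 M counts in the periodontitis libraries. Apoa4, an apolipoprotein of enterocytes, took the largest share of counts in every library but 1, and the enterocyte enzymes Sis and Mgam were found in each. Control library 5 stood apart: it had 14.9 M counts, 20080 genes with a count against 23350 or more in the other libraries, and 29.4% of its counts from mitochondrial genes against at most 6.001% in the others, and mt-Co1 as its most abundant gene. Its correlation with the other 9 libraries was 0.852 to 0.887. Periodontitis libraries 3, 4 and 5 differed from libraries 1 and 2 of their own group. Libraries 1 and 2 correlated at 0.984 to 0.992 with control libraries 1 to 4, but at 0.969 to 0.983 with periodontitis libraries 3, 4 and 5. Those 3 correlated at 0.988 to 0.991 with each other. Fabp6, which binds bile acids in cells of the ileum, stood at 365, 328, 17.5, 2.92 and 8.07 CPM (counts per M, after TMM scaling) in periodontitis libraries 1 to 5, while the control libraries lay at 197 to 509.9 CPM. Transcripts of the X-inactivation gene Xist (0.7102 to 137 CPM) and of the Y-linked gene Ddx3y (0 to 77.4 CPM) were mixed in both groups.

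Of 17464 genes tested, edgeR's quasi-likelihood test with Benjamini-Hochberg adjustment called 5 at an adjusted p under 0.05. In pups of dams with periodontitis 3 genes rose (0.0172% of the genes tested) and 2 fell (0.0115%). Without adjustment, 927 genes (5.31%) had a p under 0.05 with a higher level and 1584 (9.07%) with a lower level. In 648 genes (3.71%) each periodontitis library lay above each control library, and in 618 (3.54%) each lay below. Counts of list members below are to be read beside these shares. Over all genes the median log2 fold change was 0.02, and 52.7% were positive. The balance of directions depended on the tool: DESeq2 called 599 genes (248 higher and 351 lower), and limma-voom called 211 (108 higher and 103 lower), with 1253 higher and 1203 lower at an unadjusted p under 0.05; the 5 genes of edgeR were among the calls of both.

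The genes that rose were C8b, Ifit2 and Mfsd2a. C8b (ENSMUSG00000029656, chr4:104766317-104804548 on GRCm38) codes for a chain of C8, one of the proteins of the complement membrane attack complex. It measured 0.794, 0.690, 1.11, 0.154 and 0.563 CPM in control libraries 1 to 5 and 2.90, 1.45, 14.8, 11.1 and 18.8 CPM in periodontitis libraries 1 to 5, that is 0.663 ± 0.350 CPM against 9.82 ± 7.51 CPM (mean ± SD, n = 5 each). Every periodontitis library was above every control library, and the fitted log2 fold change was 3.86 ± 0.63 (SE), or 14.6-fold. Ifit2 (ENSMUSG00000045932, chr19:34550694-34576419) is an interferon-induced antiviral protein. Its level was 15.6, 11.96, 11.9, 9.95 and 12.2 CPM in control libraries 1 to 5 and 21.9, 16.8, 68.4, 57.9 and 117 CPM in periodontitis libraries 1 to 5, a log2 fold change of 2.19 ± 0.37 (SE). The groups did not overlap, and periodontitis libraries 3, 4 and 5 were the high ones. Mfsd2a (ENSMUSG00000028655, chr4:122946850-122961188) carries lysophosphatidylcholine, including that with docosahexaenoic acid, into cells. Control libraries 1 to 5 had 17.3, 12.4, 17.0, 18.0 and 16.9 CPM and periodontitis libraries 1 to 5 had 29.9, 25.3, 70.1, 84.5 and 49.4 CPM, a log2 fold change of 1.67 ± 0.29 (SE). Here too the groups did not overlap, and libraries 1 and 2 of the periodontitis group lay between the controls and libraries 3, 4 and 5.

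Maoa and Trim38 fell. Maoa (ENSMUSG00000025037, chrX:16619698-16687818) is monoamine oxidase A, which degrades serotonin and noradrenaline. Levels were 42.1, 52.6, 45.0, 93.5 and 95.3 CPM in control libraries 1 to 5 and 20.2, 37.5, 12.8, 15.3 and 13.0 CPM in periodontitis libraries 1 to 5, and the log2 fold change was -1.73 ± 0.28 (SE). Control libraries 4 and 5 were the highest and periodontitis libraries 3, 4 and 5 the lowest. Trim38 (ENSMUSG00000064140, chr13:23769913-23791528), a ubiquitin ligase that dampens innate immune signalling, was low in all libraries, at 1.18, 1.08, 1.34, 2.93 and 4.35 CPM in control and 0.449, 0.810, 0.122, 0.153 and 0.268 CPM in periodontitis libraries 1 to 5. Its groups did not overlap, and its log2 fold change was -2.52 ± 0.44 (SE). The adjusted p of edgeR was 0.0427 for each of the 5 genes. With periodontitis libraries 3, 4 and 5 left out, 0 genes were called (lowest adjusted p 0.995, 215 genes at an unadjusted p under 0.05), and the log2 fold changes of the 5 genes were then 1.70 for C8b, 0.66 for Ifit2, 0.77 for Mfsd2a, -1.18 for Maoa and -1.71 for Trim38. With 1 library left out at a time, the adjusted p of the 5 genes ran from 0.00103 to 0.170; all 5 failed to pass when the library removed was control 1, 2, 3 or 4, or periodontitis 3, 4 or 5, and all 5 passed without periodontitis library 1 or 2. Without control library 5, 49 genes were called (39 higher and 10 lower), among them these 5 and Ctsl, Gla, Fcgrt, C2 and Plin2.

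**Figure D1:**
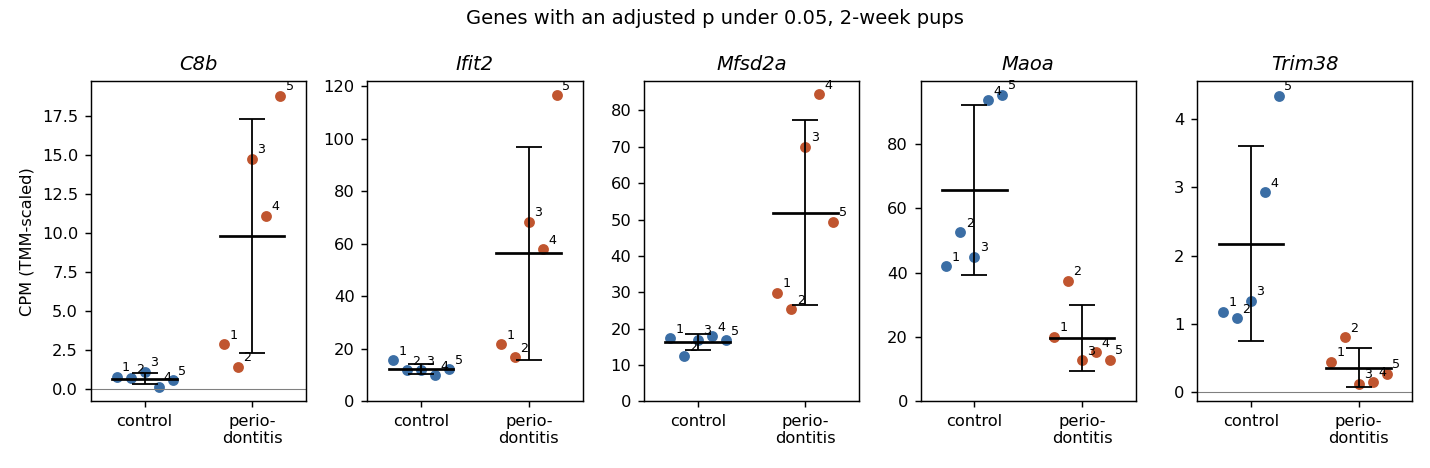
CPM of the 5 genes that passed the adjusted test, in the 5 control (blue) and 5 periodontitis (orange) libraries of 2 weeks; digits are library numbers, horizontal lines means and bars the SD, and each panel has its own axis. In every panel the 2 groups are separate, and in C8b and Ifit2 libraries 3, 4 and 5 of the periodontitis group lie far above libraries 1 and 2.

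Among genes whose groups did not overlap and whose mean log2 CPM was at least 1, those with the highest log2 fold changes held C8b, Ifit2, Mfsd2a and several genes of little known role in the intestine. Kif12, a kinesin, had 1.29 to 19.1 CPM in control and 22.0 to 105 CPM in periodontitis libraries. Paqr9, a membrane protein of the progestin and adipoQ receptor family, had 7.97 to 37.3 against 43.4 to 151 CPM. Pdzk1ip1, a small membrane protein of transporting epithelia, had 2.25 to 20.5 against 25.3 to 78.4 CPM. In each of these genes periodontitis libraries 3, 4 and 5 were the highest of all and control library 5 the lowest. The other genes of this group were Dct (2.24 ± 0.50), which makes melanin, Dio3os (2.20 ± 0.54), an antisense RNA whose reads cannot be told apart from those of its partner where strand was not used, Sapcd2 (1.76 ± 0.42), Aph1c (1.72 ± 0.34), a subunit of gamma-secretase, Lect2 (1.65 ± 0.42), a secreted protein made mainly by liver, Ogdhl (1.62 ± 0.36), an enzyme related to 2-oxoglutarate dehydrogenase, and Smim1 (1.52 ± 0.35), a small membrane protein, as log2 fold changes with SE, besides H19 and Ctsl below. None of the genes in this paragraph that are not among the 5 called passed the adjusted test, with adjusted p from 0.0541 for Aph1c to 0.0887 for Dio3os.

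The genes with the lowest log2 fold changes by the same rule were of mixed roles. Slc5a12, a sodium-coupled lactate transporter, had 11.3, 12.3, 11.3, 16.5 and 23.0 CPM in control libraries 1 to 5 and 2.15, 5.03, 0.0406, 0.102 and 0.0894 CPM in periodontitis libraries 1 to 5. Ly6m, a GPI-anchored protein of the Ly6 family, had 53.2, 82.5, 70.4, 124 and 36.9 CPM and 15.4, 18.6, 5.82, 6.43 and 5.99 CPM. In Slc5a12 the level was near 0 in periodontitis libraries 3, 4 and 5 and reduced in libraries 1 and 2, while in Ly6m all 5 periodontitis libraries were low. Ereg, which encodes the growth factor epiregulin, had 6.71 to 34.3 CPM in control and 2.59 to 5.58 CPM in periodontitis libraries. The remaining genes were Clca4a (-2.89 ± 0.74), Pmp22 (-2.42 ± 0.66), a myelin protein also made by other cells, Slc5a4b (-2.23 ± 0.56), a relative of the glucose transporters, Cyp4f14 (-2.08 ± 0.59) and Cyp4v3 (-1.97 ± 0.49), fatty acid hydroxylases, Aspa (-1.98 ± 0.52), which splits N-acetylaspartate, Tmem236 (-1.79 ± 0.42), Cybrd1 (-1.59 ± 0.55), the duodenal ferric reductase, Slc47a1 (-1.58 ± 0.45), an exporter of organic cations, and Hpgd (-1.55 ± 0.37), which inactivates prostaglandins, besides Sis and Maoa. Their adjusted p in edgeR ran from 0.0541 for Ereg to 0.185 for Cybrd1, and control library 5 was the highest of the 10 libraries in Slc5a12, Clca4a, Pmp22, Sis, Cyp4f14, Aspa, Cyp4v3, Ereg, Tmem236, Maoa, Cybrd1 and Hpgd. Without it the log2 fold changes were -0.96 for Tmem236, -0.98 for Hpgd and -1.18 for Ereg. Reads of near-identical family members, as in the Slc5a4, Cyp4, Clca4, Ifit, Oas1, Serpina1 and Defa families, can be split between copies by the authors' counting, and the values of such genes are uncertain to that degree.

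Genes of milk protein uptake had higher values in pups of dams with periodontitis, and none of the list passed the adjusted test. Of 8 uptake genes 5 were higher at an unadjusted p under 0.05 (5.31% over all genes) and 0 lower. The groups did not overlap in 2 (3.71% over all genes were higher without overlap). Their median log2 fold change was 0.69 (0.02 over all genes). Fcgrt, the neonatal Fc receptor that carries maternal IgG across the gut wall, measured 1001, 819, 981, 364 and 76.0 CPM in control libraries 1 to 5 and 1439, 951, 3288, 3111 and 4049 CPM in periodontitis libraries 1 to 5. The lowest levels were those of control libraries 4 and 5, the highest those of periodontitis libraries 3, 4 and 5, and library 2 of the periodontitis group lay within the control range. The log2 fold change of Fcgrt was 1.99 ± 0.47 (SE), with an adjusted p of 0.0645. Lrp2, the scavenger receptor megalin, had 0.329, 0.299, 0.455, 0.154 and 0.322 CPM in control and 0.841, 0.682, 1.77, 2.32 and 1.79 CPM in periodontitis libraries 1 to 5, so that the groups did not overlap at these low levels. Dab2, the clathrin adaptor of the uptake machinery, had 47.6 to 137 against 139.6 to 295 CPM, also without overlap. Lrpap1, a chaperone of megalin, had a log2 fold change of 0.53 ± 0.22, while Cubn, the cubilin receptor itself, had -0.26 ± 0.43, or 0.12 without periodontitis libraries 3, 4 and 5. In these bulk samples, fewer or more cells of a type and less or more RNA per cell cannot be told apart.

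Lysosomal genes showed the same pattern in a longer list. Of 32 genes, 28 had a positive log2 fold change. At an unadjusted p under 0.05, 24 were higher (5.31% over all genes) and 0 were lower. Without overlap were 9 (3.71% over all genes, higher), and 0 passed the adjusted test. The median was 0.72, and it was 0.44 without periodontitis libraries 3, 4 and 5 and 0.59 without control library 5. Ctsl, the protease cathepsin L, measured 383, 331, 383, 189.6 and 159 CPM in control libraries 1 to 5 and 485, 425, 1316, 1201 and 1301 CPM in periodontitis libraries 1 to 5. Gla, alpha-galactosidase A, measured 19.3, 16.9, 18.96, 11.7 and 16.1 CPM and 25.6, 19.3, 34.2, 38.4 and 35.8 CPM. Both genes separated the groups, although library 2 of the periodontitis group was just above the highest control library in Gla. Their log2 fold changes were 1.71 ± 0.32 and 0.89 ± 0.17, each with an adjusted p of 0.0541. Lgmn, the asparaginyl protease legumain, had 1.28 ± 0.28, Ctsz, cathepsin Z, had 0.78 ± 0.17, and Gusb, beta-glucuronidase, had 1.36 ± 0.33. Gusb and Gaa, acid alpha-glucosidase (1.06 ± 0.30), were chosen for mention after their values were seen.

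Many lysosomal genes carry the motif of the transcription factor TFEB near their start site, and its core was looked for because most of these genes had positive log2 fold changes. The letters searched were TCACGTG on both strands, in the 250 bases before each RefSeq start site (GRCm38.p6). The core was found in 3.58% of 27025 genes with a promoter sequence, in 8 of 24 lysosomal genes with one (33.3%), and in 2 of the 8 among these 24 whose groups did not overlap, Gla and Gaa. In the promoters of both, printed from the 5′ end with the base next to the start site last, capitals mark the matches. In Gla matches on the plus and minus strands overlap, and the first starts at position -228 from the start site. In Gaa the match starts at -141.
Gla (chrX:134601006-134601255, minus strand): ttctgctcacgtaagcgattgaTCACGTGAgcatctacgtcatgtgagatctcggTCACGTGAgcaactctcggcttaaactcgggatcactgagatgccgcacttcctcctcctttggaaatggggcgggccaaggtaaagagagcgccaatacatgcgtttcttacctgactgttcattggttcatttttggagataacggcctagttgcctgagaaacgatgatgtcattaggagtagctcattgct
Gaa (chr11:119267713-119267962, plus strand): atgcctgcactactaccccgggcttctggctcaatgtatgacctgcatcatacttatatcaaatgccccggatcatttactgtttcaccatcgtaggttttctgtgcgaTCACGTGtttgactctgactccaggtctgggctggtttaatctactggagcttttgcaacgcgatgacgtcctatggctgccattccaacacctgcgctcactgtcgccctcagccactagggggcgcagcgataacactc
A match describes these letters only, not a site in use.

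Genes of milk-stage metabolism had a median log2 fold change of 0.80, with 7 of 10 higher at an unadjusted p under 0.05 (5.31% over all genes) and 0 lower. Asl, argininosuccinate lyase, measured 42.1, 37.8, 41.9, 25.9 and 7.49 CPM in control and 63.7, 44.9, 74.8, 82.8 and 70.6 CPM in periodontitis libraries 1 to 5. The groups did not overlap, and control library 5 was the lowest by far. Prdm1, the repressor that holds the suckling program of the epithelium, had 12.3 to 29.6 against 25.7 to 54.6 CPM. Fbp1, a gluconeogenic enzyme, had a log2 fold change of 1.13 ± 0.33. The lipid droplet protein Plin2, in a list of fat absorption with a median of 0.09, had 220.4, 195, 217, 155 and 76.5 CPM in control and 310.2, 244, 433, 377 and 445 CPM in periodontitis libraries 1 to 5, again without overlap, at a log2 fold change of 1.07 ± 0.22 (SE).

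**Figure D2:**
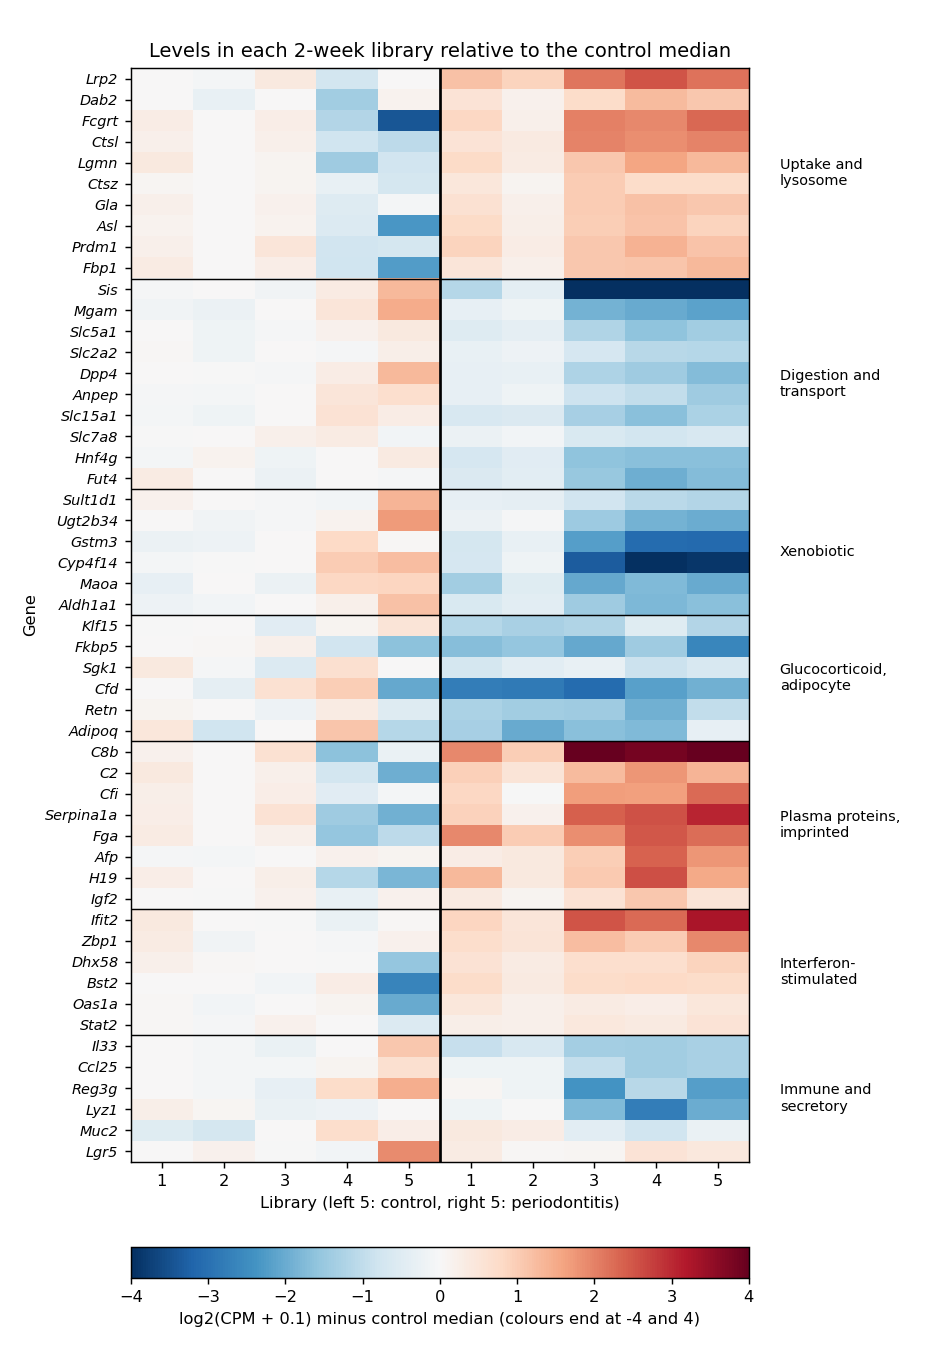
Levels of named genes (rows) in the 5 control and 5 periodontitis libraries of 2 weeks (columns), as log2(CPM + 0.1) minus the median of the control libraries; red is higher and blue lower. Periodontitis libraries 3, 4 and 5 have the strongest colours in most gene groups, libraries 1 and 2 are paler with the same sign in many genes, control libraries 4 and 5 often have the opposite sign, and Klf15, Cfd and Retn are low in all 5 periodontitis libraries.

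Genes of the digestion of solid food had lower values. All 8 genes of sugar digestion and uptake had negative log2 fold changes, with a median of -0.67 and 0 past the adjusted test. At an unadjusted p under 0.05 were 5 (9.07% over all genes, lower), and 3 were without overlap (3.54% over all genes, lower). Sis, sucrase-isomaltase, measured 582, 604, 544, 761 and 1500.4 CPM in control libraries 1 to 5 and 277, 462, 28.0, 9.004 and 19.2 CPM in periodontitis libraries 1 to 5. The groups did not overlap, but periodontitis libraries 3, 4 and 5 were far below libraries 1 and 2, of which library 2 lay nearer the controls. Its log2 fold change was -2.33 ± 0.72 (SE), with an adjusted p of 0.142. Slc5a1, the sodium-glucose cotransporter SGLT1, measured 922, 826, 893, 1047 and 1206 CPM and 646, 712, 399, 304 and 354 CPM, a more even difference of -1.02 ± 0.21 (SE) (adjusted p = 0.0541). Slc2a2, the basolateral glucose transporter GLUT2, had 249.9 to 332 against 128 to 246 CPM and no overlap, and Mgam, maltase-glucoamylase, had 631 to 2053 against 167 to 646 CPM. Of 13 brush border peptidases 8 were lower at an unadjusted p under 0.05 (9.07% over all genes) and 1 was higher (5.31%), with a median of -0.74. Dpp4, a peptidase that also inactivates incretins, had a log2 fold change of -1.29 ± 0.32, Anpep, aminopeptidase N, -0.92 ± 0.25, Mme, neprilysin, -1.08 ± 0.31, and Enpep, aminopeptidase A, -0.83 ± 0.24. Without control library 5 Mme had -0.64. The medians without periodontitis libraries 3, 4 and 5 were -0.35 for sugar genes and -0.22 for peptidases.

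Transport of amino acids and peptides differed less as a group, with a median of -0.16 over 11 genes, and of 0.00 without periodontitis libraries 3, 4 and 5. Of the 11 genes 3 were lower at an unadjusted p under 0.05 (9.07% over all genes). Slc15a1, the peptide transporter PEPT1, measured 104, 95.8, 108, 162 and 133 CPM in control and 69.9, 73.1, 43.1, 34.2 and 45.0 CPM in periodontitis libraries 1 to 5. It separated the groups, also in libraries 1 and 2, at a log2 fold change of -1.18 ± 0.27 (SE) (adjusted p = 0.0579). Slc7a8, a carrier of neutral amino acids, had 151 to 206 against 96.9 to 149.8 CPM, without overlap, and Slc6a20a, a proline transporter, had -0.89 ± 0.27 on the log2 scale. In the list of arginine and citrulline metabolism (median 0.07, and -0.04 without control library 5) 3 genes were higher and 3 lower at an unadjusted p under 0.05 (5.31% and 9.07% over all genes). Otc, the ornithine transcarbamylase of citrulline synthesis, had -1.03 ± 0.27, or -0.64 without control library 5, and Aldh18a1, the first enzyme from glutamate towards ornithine, 0.62 ± 0.21.

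Regulators and surface sugars that change with weaning were among the lower genes. Hnf4g, a nuclear receptor of differentiated enterocytes, measured 105, 122, 96.8, 110.0 and 142 CPM in control and 68.5, 80.2, 35.7, 34.4 and 34.3 CPM in periodontitis libraries 1 to 5, without overlap (log2 fold change -1.19 ± 0.29, adjusted p = 0.0714). It stood in a list of 16 epithelial transcription factors with a median of -0.10, which was 0.08 without periodontitis libraries 3, 4 and 5. Of 10 glycosyltransferases of the glycan change at weaning 6 were lower at an unadjusted p under 0.05 (9.07% over all genes). Their median was -0.51, or -0.19 without periodontitis libraries 3, 4 and 5. Fut4, a fucosyltransferase, had 26.2 to 38.2 CPM in control and 7.83 to 22.9 CPM in periodontitis libraries, without overlap. Fut8, which adds core fucose, had -0.71 ± 0.18, and B4galnt2, which makes the Sda antigen, -1.25 ± 0.37. Genes of calcium uptake had a median of -1.07 over 5 genes. Vdr, the vitamin D receptor, had 157, 183, 51.8, 35.2 and 47.2 CPM in periodontitis libraries 1 to 5 against 156 to 227 CPM in control, so that libraries 1 and 2 overlapped with the controls. S100g, the calcium carrier calbindin-D9k, had 1186, 1312, 242, 102 and 125 CPM in periodontitis libraries 1 to 5 against 1012 to 2829 CPM in control, with the same split, and a log2 fold change of -1.35 ± 0.91. Atp2b1, the calcium pump of the basolateral membrane, had -1.12 ± 0.40, or -0.56 without control library 5. Without periodontitis libraries 3, 4 and 5 the median of this list was -0.12.

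Genes that mark a part of the intestine were read because the labels give no segment. Of 8 proximal genes, 1 was lower at an unadjusted p under 0.05 and all were negative, with a median of -0.27. Of 8 distal genes, 2 were higher and 1 lower, with a median of -0.42. Beside 5.31% higher and 9.07% lower over all genes, the 1 lower gene in each list is near that share. Slc10a2, the ileal bile acid transporter, had 14.1, 15.5, 17.3, 67.8 and 167 CPM in control and 19.6, 19.3, 1.36, 2.44 and 1.41 CPM in periodontitis libraries 1 to 5. Like Fabp6, it was low in periodontitis libraries 3, 4 and 5, and it was high in control libraries 4 and 5. Its log2 fold change was -2.66 ± 0.76, or -1.70 without control library 5. The distal median was -0.17 without control library 5, and without periodontitis libraries 3, 4 and 5 both medians turned, to 0.10 for distal and 0.04 for proximal genes. In contrast, Fgf15, the ileal hormone that restrains bile acid synthesis, had 107, 126, 75.0, 55.2 and 57.5 CPM in periodontitis libraries against 39.5 to 65.0 CPM in control, and Pyy, a hormone of distal endocrine cells, had 10.2 to 17.1 against 7.57 to 9.94 CPM without overlap. The part of segment in the differences described here was not tested.

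Genes of the metabolism of foreign compounds had a median of -1.05, or -0.37 without periodontitis libraries 3, 4 and 5. Of 26 genes, 25 were negative, 21 at an unadjusted p under 0.05 and 4 without overlap, and 0 passed the adjusted test. The shares over all genes were 9.07% lower at that p and 3.54% lower without overlap. Sult1d1, a sulfotransferase, measured 367, 324, 310.5, 299 and 825 CPM in control and 256, 254, 189.6, 154 and 145 CPM in periodontitis libraries 1 to 5. Gstm3, a glutathione transferase, measured 76.8, 77.5, 89.7, 157 and 92.0 CPM and 54.7, 73.3, 19.2, 10.4 and 10.3 CPM. Both separated the groups; control library 5 was the highest in Sult1d1, and in Gstm3 periodontitis library 2 was close to the lowest control library. Ugt2b34, a glucuronosyltransferase, had a log2 fold change of -1.43 ± 0.38. Without control library 5 the values were -0.70 for Sult1d1 and -0.89 for Ugt2b34. Cyp1a1, the target of the aryl hydrocarbon receptor, was low throughout, at 0.0387, 0.0230, 0.0227, 1.52 and 1.69 CPM in control libraries 1 to 5 and 0.0561, 0.0639, 0, 0 and 0 CPM in periodontitis libraries 1 to 5, where only control libraries 4 and 5 were above 1 CPM. Among 8 sensors of such compounds the median was -0.27 (0.01 without periodontitis libraries 3, 4 and 5), and Ppara, the fatty acid sensor, had -0.86 ± 0.26. In vitamin A metabolism (median 0.04 over 14 genes), the retinal dehydrogenase Aldh1a1 had 144 to 375 against 47.9 to 123 CPM and the retinal reductase Dhrs3 25.8 to 37.5 against 38.6 to 42.1 CPM, each without overlap. Among 12 genes of monoamines and tryptophan (median -0.29), Maoa fell, as above, Slc6a4, the serotonin transporter, had -0.50 ± 0.18 without overlap, and Ido1, which opens the kynurenine pathway, had -1.79 ± 0.62, or -0.99 without control library 5.

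**Figure D3:**
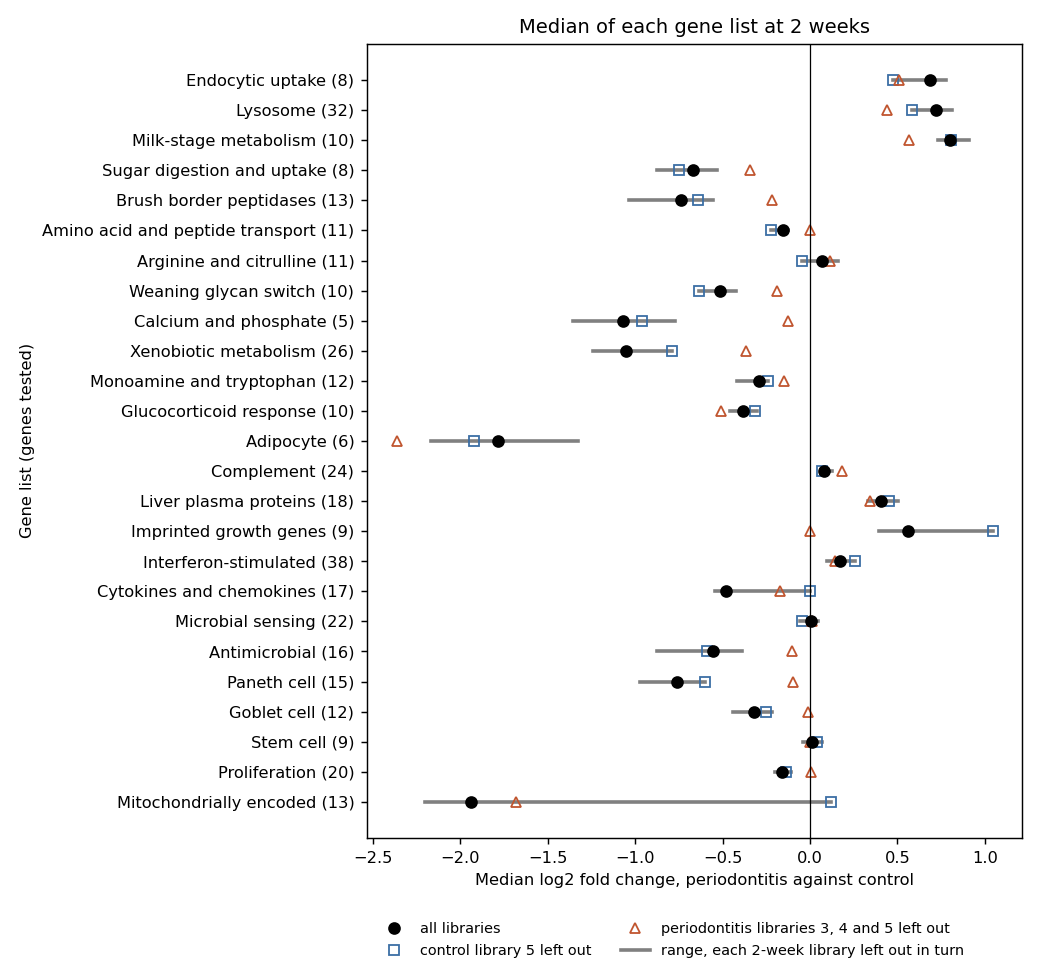
Median log2 fold change of periodontitis against control libraries at 2 weeks in 25 gene lists, with the number of genes tested in brackets; black points are all libraries, blue squares leave out control library 5, orange triangles leave out periodontitis libraries 3, 4 and 5, and grey bars span the values with each 2-week library left out in turn. Uptake, lysosome and milk-stage lists lie right of 0 under each choice, digestion, xenobiotic and adipocyte lists lie left of it, and the mitochondrially encoded genes cross 0 without control library 5.

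Some genes induced by glucocorticoids were low in periodontitis libraries 1 and 2 as well as in 3, 4 and 5. Of 10 genes of the glucocorticoid response 9 were negative and 4 lower at an unadjusted p under 0.05 (9.07% over all genes), with a median of -0.38. Klf15, a transcription factor induced by glucocorticoids, measured 3.23, 3.27, 2.36, 3.50 and 4.67 CPM in control libraries 1 to 5 and 1.44, 1.28, 1.36, 2.32 and 1.39 CPM in periodontitis libraries 1 to 5. Fkbp5, a chaperone that dampens the glucocorticoid receptor and is induced by it, measured 29.6, 30.6, 34.3, 17.3 and 9.50 CPM and 9.03, 9.99, 7.10, 10.9 and 4.78 CPM. In Klf15 the groups did not overlap, and in Fkbp5 control library 5 alone fell within the periodontitis range. Their log2 fold changes were -1.11 ± 0.31 (SE) and -1.54 ± 0.46 (SE) (adjusted p = 0.109 and 0.121), and -1.30 and -1.35 without periodontitis libraries 3, 4 and 5. Sgk1, a kinase induced by corticosteroids, had 99.8 to 226 against 79.7 to 118 CPM, and Nr3c1, the glucocorticoid receptor, 87.6 to 187 against 68.3 to 89.9 CPM. The log2 fold change of Nr3c1 was -0.55 ± 0.21, or -0.28 without control library 5.

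Of 6 genes of fat cells that were tested, of 7 listed, 4 were lower at an unadjusted p under 0.05 (9.07% over all genes). Their median was -1.79, or -2.36 without periodontitis libraries 3, 4 and 5. Cfd, the fat cell protease adipsin that also activates the alternative complement pathway, measured 1.96, 1.52, 3.07, 3.98 and 0.402 CPM in control and 0.206, 0.192, 0.142, 0.358 and 0.447 CPM in periodontitis libraries 1 to 5. Retn, the fat cell hormone resistin, measured 0.310, 0.276, 0.227, 0.374 and 0.161 CPM and 0.0561, 0.0426, 0.0406, 0 and 0.0894 CPM. Retn separated the groups, and in Cfd only control library 5 lay within the periodontitis range, all at low levels. The log2 fold changes were -3.05 ± 0.79 (SE) for Cfd and -2.57 ± 0.80 (SE) for Retn, with adjusted p of 0.0896 and 0.145. Adipoq, the hormone adiponectin, had -2.06 ± 0.84, and Plin1, the lipid droplet protein of fat cells, -1.52 ± 0.69. The other members tested, Cidec (0.45 ± 0.30) and Plin4 (0.16 ± 0.44), which coat lipid droplets, had positive values, which were 0.25 and -0.08 without control library 5 and 0.23 and -0.61 without periodontitis libraries 3, 4 and 5. The summed level of the list was 43.8 to 135 CPM in control and 119 to 167 CPM in periodontitis libraries, nearly all of it Cidec. Of the defining genes, Retn was at 0 in periodontitis library 4, and Adipoq was under 0.4 CPM in every periodontitis library. The part of attached fat tissue in these values was not tested.

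Klf15, Fkbp5, Cfd, Retn, Adipoq and Plin1 had positive log2 fold changes at 7 weeks, but of these only Klf15 passed edgeR's adjusted test there (adjusted p = 0.0188). The adjusted p was 0.104 for Cfd and for Retn, 0.198 for Adipoq and 0.756 for Plin1, and Fkbp5 did not pass either. Klf15 measured 2.62, 4.02, 2.75, 3.27 and 4.43 CPM in control libraries 1 to 5 of 7 weeks and 9.40, 7.21, 26.8, 9.78 and 17.1 CPM in periodontitis libraries 1 to 5 of 7 weeks, a log2 fold change of 2.05 ± 0.31 (SE). The difference between the 2-week and 7-week log2 fold changes was -3.16, with an adjusted p of 0.01004 in edgeR's test of the difference itself. Cfd measured 1.09, 0.588, 0.492, 0.389 and 0.845 CPM and 14.8, 10.4, 9.49, 39.4 and 0.174 CPM at 7 weeks, where periodontitis library 5 lay below the controls and the other 4 above. Its difference between ages was -7.47 (adjusted p = 0.0156), and that of Retn was -7.05 (adjusted p = 0.0238). Retn reached at most 0.374 CPM in any 2-week library, so its value rests on few counts. By this test 4 genes differed between the ages, the other being Scd1, a fatty acid desaturase, at -2.41 (adjusted p = 0.0238), and 1537 had an unadjusted p under 0.05. The 7-week libraries had 0.0512 to 0.658 CPM of Xist and 29.2 to 152 CPM of Ddx3y, whereas the 2-week libraries were mixed. The part of sex in the difference between ages was not tested. For Fkbp5 (-2.73, adjusted p = 0.206), and for each of the 5 genes called at 2 weeks (adjusted p from 0.125 to 0.574), the difference did not pass.

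**Figure D4:**
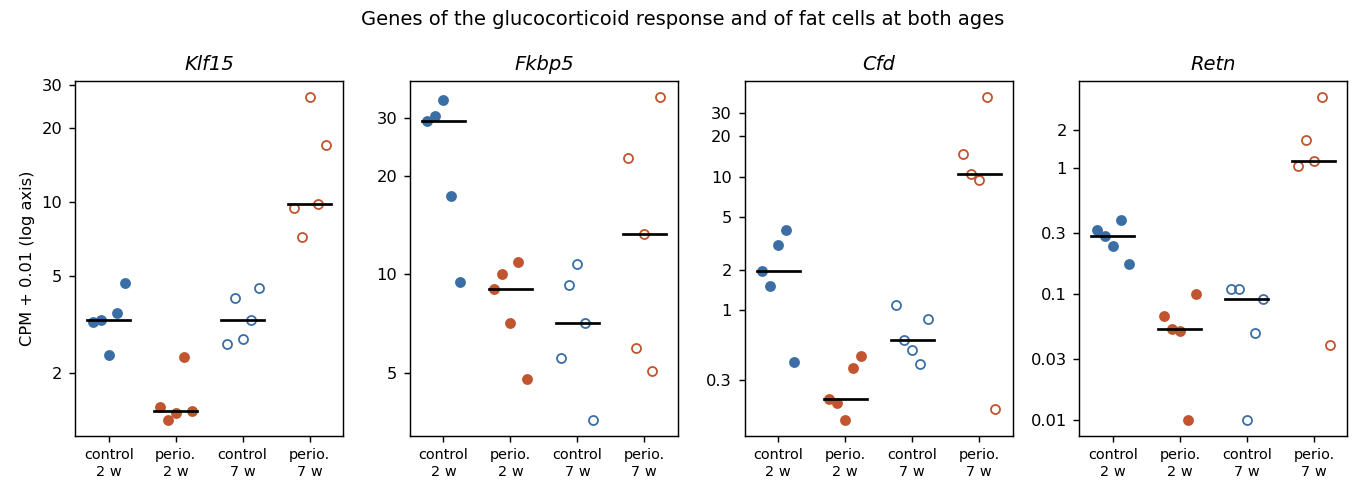
CPM + 0.01, on log axes that differ between panels, of Klf15, Fkbp5, Cfd and Retn in the 4 groups of 5 libraries (filled circles 2 weeks, open circles 7 weeks, blue control, orange periodontitis); lines are medians. At 2 weeks the periodontitis libraries lie low, at 7 weeks most lie high, and in Cfd and Retn 1 periodontitis library of 7 weeks lies within the range of the 2-week periodontitis libraries.

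Genes of plasma proteins that liver makes in quantity were read for the same libraries. Of 18 genes tested, of 24 listed, 7 were higher and 1 was lower at an unadjusted p under 0.05 (5.31% and 9.07% over all genes). Without overlap were 6 (3.71% over all genes, higher), and the median was 0.41. Afp, alpha-fetoprotein, the fetal albumin of liver, yolk sac and gut, measured 10.3, 9.98, 10.6, 12.1 and 11.5 CPM in control and 13.1, 13.96, 20.9, 54.6 and 36.0 CPM in periodontitis libraries 1 to 5. Fga, a chain of fibrinogen, measured 1.41, 1.10, 1.27, 0.308 and 0.483 CPM and 4.43, 2.32, 4.30, 6.58 and 5.61 CPM. Both separated the groups, and Afp was highest in periodontitis libraries 4 and 5. Their log2 fold changes were 1.35 ± 0.30 (SE) and 2.30 ± 0.43 (SE), each with an adjusted p of 0.0545. Serpina1a, alpha-1-antitrypsin, had 3.86 to 22.5 against 16.9 to 123 CPM, and Kng1, kininogen, stayed under 2 CPM in all libraries (3.35 ± 0.65). Outside the naming rule, Fgb, another fibrinogen chain (2.06 ± 0.44), and F10, coagulation factor X (1.15 ± 0.30), also had no overlap, and Ttr, transthyretin, had 1.51 ± 0.39. The summed level of the list was 89.3 to 155 CPM in control and 156 to 367 CPM in periodontitis libraries. Alb, albumin, the defining gene of hepatocytes, was under the count filter, with 30 counts over all control and 26 over all periodontitis libraries. The other listed genes under the filter had more counts in periodontitis libraries, without scaling for depth. They were Fgg (10 against 60), Hpx (29 against 123), Ahsg (1 against 10), F7 (5 against 10) and Plg (5 against 8).

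Of complement genes a few had higher values. The median over 24 tested genes, of 29 listed, was 0.08, with 5 higher and 2 lower at an unadjusted p under 0.05 and C8b alone past the adjusted test. Beside 5.31% higher and 9.07% lower over all genes, the 2 lower genes are near the share. C2, a protease of the classical pathway, measured 47.3, 35.9, 41.6, 21.7 and 9.18 CPM in control and 69.6, 51.6, 86.4, 122 and 92.4 CPM in periodontitis libraries 1 to 5, without overlap. Cfi, which cleaves C3b and C4b, measured 14.1 to 23.3 against 18.96 to 92.9 CPM, and Mbl2, a mannose-binding lectin of the lectin pathway, 0 to 0.132 against 0.183 to 0.760 CPM. Mbl2 was chosen for mention after its values were seen. It rests on 16 counts over all control and 86 over all periodontitis libraries. The log2 fold change of C2 was 1.43 ± 0.31 (SE) (adjusted p = 0.0545) and 1.20 (adjusted p = 0.0375) without control library 5.

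Imprinted growth genes, which are abundant in fetal tissue and decline after birth, had a median of 0.56 over 9 genes. At an unadjusted p under 0.05, 4 were higher (5.31% over all genes) and 0 lower. The median was 0.00 without periodontitis libraries 3, 4 and 5 and 1.04 without control library 5. H19, a long noncoding RNA, measured 33.7, 28.3, 33.1, 12.9 and 7.97 CPM in control and 69.0, 37.0, 58.1, 169.8 and 80.7 CPM in periodontitis libraries 1 to 5. The groups did not overlap, and periodontitis library 4 was the highest. The log2 fold change was 1.83 ± 0.42 (SE) for H19 (adjusted p = 0.0610), 0.56 ± 0.19 for Igf2, the fetal growth factor, 1.18 ± 0.37 for Mest and 1.53 ± 0.58 for Dlk1, which was -0.37 without periodontitis libraries 3, 4 and 5.

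Interferon-stimulated genes held a small set with higher values. Of 38 genes 7 were higher and 2 lower at an unadjusted p under 0.05 (5.31% and 9.07% over all genes), and the median was 0.17. Ifit2 alone passed the adjusted test. In 9 genes each periodontitis library lay above each control library, and in 0 below (3.71% and 3.54% over all genes). Zbp1, a sensor of Z-form nucleic acid, measured 12.7, 9.27, 10.1, 9.71 and 11.4 CPM in control and 16.7, 14.7, 23.9, 20.8 and 38.5 CPM in periodontitis libraries 1 to 5. Bst2, tetherin, which holds budding virus at the cell surface, measured 16.4, 16.2, 15.1, 19.8 and 2.50 CPM and 26.9, 20.6, 27.2, 27.9 and 26.8 CPM. In Zbp1 periodontitis library 5 was the highest, while in Bst2 the periodontitis libraries were nearly level and control library 5 was far below the others. Dhx58, a regulator of RNA sensing, had a log2 fold change of 0.78 ± 0.27, Irf7, a factor that drives interferon genes, 0.58 ± 0.27, Stat2, a transcription factor of interferon signalling, 0.42 ± 0.19, Oas1a 0.55 ± 0.31 and Oas1g 0.67 ± 0.37, both of the 2′-5′ oligoadenylate synthetases. The last 4 were chosen for mention after their values were seen, and Irf7, Oas1a, Oas1g, Dhx58 and Bst2 each had their lowest level of the 10 libraries in control library 5. Without it Oas1a had 0.32 and Oas1g 0.43.

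The promoters of interferon-stimulated genes are known for a response element that the factor ISGF3 binds. The letters GAAANNGAAA were searched on both strands of the same 250 bases and were found in 3.46% of 27025 genes, in 12 of 27 interferon-stimulated genes with a promoter sequence (44.4%), and in 4 of the 6 among these 27 without overlap, Bst2, Stat2, Oas1a and Oas1g. In Bst2 a pair of overlapping matches starts at position -130 and in Oas1a at -20 from the start site, with the matches in capitals below. Ifit2 has no match in this window, which says only that these letters are not there.
Bst2 (chr8:71537473-71537722, minus strand): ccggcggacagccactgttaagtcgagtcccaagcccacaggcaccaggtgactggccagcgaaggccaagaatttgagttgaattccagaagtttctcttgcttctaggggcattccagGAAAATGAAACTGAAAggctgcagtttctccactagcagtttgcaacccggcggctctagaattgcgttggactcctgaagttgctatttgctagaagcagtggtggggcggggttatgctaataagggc
Oas1a (chr5:120907526-120907775, minus strand): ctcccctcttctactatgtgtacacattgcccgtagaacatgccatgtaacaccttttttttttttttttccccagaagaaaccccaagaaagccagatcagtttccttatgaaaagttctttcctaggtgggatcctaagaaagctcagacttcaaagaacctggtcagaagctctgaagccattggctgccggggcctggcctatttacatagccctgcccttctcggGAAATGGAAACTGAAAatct

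Signals and sensors of immunity were read next. Of 17 cytokine and chemokine genes tested, of 27 listed, 1 was higher and 4 were lower at an unadjusted p under 0.05 (5.31% and 9.07% over all genes). Without overlap 2 were higher and 3 lower (3.71% and 3.54% over all genes). The median was -0.48, or 0.00 without control library 5. Il33, the alarmin of epithelial and stromal cells, measured 24.6, 23.3, 20.3, 24.9 and 52.5 CPM in control and 12.9, 15.8, 9.46, 9.41 and 10.04 CPM in periodontitis libraries 1 to 5. All periodontitis libraries were below all control libraries, and the log2 fold change was -1.33 ± 0.28 (SE) (adjusted p = 0.0541). Ccl25, the chemokine that draws lymphocytes to the small intestine, measured 356, 340.3, 334, 382 and 551 CPM and 313, 318, 182, 136 and 143 CPM, also without overlap. Il18, an epithelial cytokine, had -1.004 ± 0.32, and Ccl20, which draws cells to lymphoid follicles, had -1.82 ± 0.59, with control library 5 at the top in both. Without that library they were -0.48 for Il18 and -0.53 for Ccl20 (adjusted p = 0.396 and 0.661). Il1b had 0.989 to 2.50 against 0.933 to 2.11 CPM and Tnf 0 to 0.562 against 0.246 to 0.533 CPM, both inflammatory cytokines whose groups overlapped and whose log2 fold changes, -0.11 ± 0.35 and 0.35 ± 0.45, were 0.06 and 0.15 without control library 5. Among 22 genes of microbial sensing and the inflammasome (median 0.01), Tlr3, the sensor of double-stranded RNA, had -1.07 ± 0.30 and was the only gene at an unadjusted p under 0.05.

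Antimicrobial genes had a median of -0.56 over 16 tested genes, or -0.10 without periodontitis libraries 3, 4 and 5. At an unadjusted p under 0.05, 5 were lower and 1 was higher (9.07% and 5.31% over all genes). Without overlap were 0 (3.54% lower and 3.71% higher over all genes). Reg3g, a lectin that kills Gram-positive bacteria, measured 39.7, 37.6, 31.3, 66.8 and 108 CPM in control and 41.8, 34.8, 7.45, 18.2 and 8.45 CPM in periodontitis libraries 1 to 5. Libraries 3, 4 and 5 were low and libraries 1 and 2 within the control range, and the difference of -1.35 ± 0.73 (SE) did not pass (adjusted p = 0.407). Reg3a, of the same family, had 11.9 to 27.9 against 0.580 to 14.6 CPM, and Pigr, which carries IgA to the lumen, had a log2 fold change of -1.09 ± 0.37. Paneth cells, which sit in the crypts and appear after birth, were read by 15 genes with a median of -0.76 and 2 lower at an unadjusted p under 0.05, a share near the 9.07% over all genes. The Paneth median was -0.10 without periodontitis libraries 3, 4 and 5. Lyz1, lysozyme, had 403 to 576 against 71.0 to 478 CPM, Defa5, a defensin, -1.25 ± 0.45 on the log2 scale, and Pla2g2a, a phospholipase that attacks bacterial membranes, -1.02 ± 0.49. Without control library 5 the log2 fold changes were -0.69 for Defa5 and -0.72 for Pigr.

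Secretory, crypt and immune cells were read by their markers. Goblet cell genes had a median of -0.32 over 12 genes, all negative, and of -0.01 without periodontitis libraries 3, 4 and 5. At an unadjusted p under 0.05 were 3 (9.07% over all genes, lower). Muc2, the mucin of the mucus layer, had 158 to 418 against 148 to 334 CPM and overlapped, while Zg16, a lectin of mucus, had -1.02 ± 0.37 and Spink4 -0.78 ± 0.26, or -0.35 without control library 5. Stem cell genes had a median of 0.01, with 0 of 9 at an unadjusted p under 0.05. Lgr5, the receptor that marks crypt base stem cells, ran over 10.1 to 14.3 CPM in the periodontitis group; control libraries 1 to 5 had 9.78, 10.9, 9.57, 8.98 and 36.8 CPM, with library 5 the highest. Its log2 fold change, -0.32 ± 0.36, became 0.29 without that library. Proliferation genes had a median of -0.16 over 20 genes (0.00 without periodontitis libraries 3, 4 and 5), and Rrm2, a subunit of ribonucleotide reductase, had 18.2 to 30.3 against 9.79 to 16.1 CPM without overlap. Macrophage genes had a median of 0.17, or 0.09 without control library 5; Csf1r, the macrophage growth factor receptor, had 0.90 ± 0.41 and Itgam, an integrin of myeloid cells, -0.38 ± 0.16, both without overlap. Igkc, an antibody light chain of plasma cells, had -2.18 ± 0.96, or -0.49 without control library 5, with control library 5 at 129.8 CPM and the other 9 libraries at 2.56 to 17.4 CPM, and Gzma, a granzyme of cytotoxic lymphocytes, had -0.81 ± 0.33. Neural and glial genes had a median of 0.50, which turned to -0.13 without periodontitis libraries 3, 4 and 5, and S100b, a glial calcium-binding protein, measured 2.65, 2.58, 3.12, 1.69 and 2.58 CPM in control and 2.28, 2.83, 11.1, 11.4 and 13.4 CPM in periodontitis libraries 1 to 5, high in libraries 3, 4 and 5. Pancreatic genes were present in every library; Ctrb1, chymotrypsinogen B, ranged over 56.3 to 195 CPM in control and 92.7 to 776 CPM in periodontitis libraries.

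Of 6 vessel genes 2 were higher without overlap (3.71% over all genes) and 0 lower. All 6 had positive log2 fold changes, but 0 had an unadjusted p under 0.05. The mean log2 CPM of this list was 4.44 to 4.63 in control and 4.83 to 4.92 in periodontitis libraries. Without overlap, 1 of 18 junction genes was higher and 1 lower, and 1 of 16 clock genes higher and 1 lower. Of 11 NRF2 targets 1 was higher, and of 18 ATF4 genes none was without overlap. Beside 3.71% higher and 3.54% lower over all genes, these are too few to set the junction, clock, NRF2 and ATF4 lists apart. Cdh5, the cadherin of blood vessels, had 18.7 to 25.7 against 28.3 to 37.5 CPM at a log2 fold change of 0.46 ± 0.27, in a list of 6 vessel genes with a median of 0.20. In junction genes (median 0.00), Cldn8, a barrier claudin, had 0.93 ± 0.35 and Tjp1, the scaffold ZO-1, -0.42 ± 0.17, or -0.22 without control library 5. Hmox1, heme oxygenase, had 3.86 to 12.7 against 13.9 to 22.0 CPM, whereas Txnrd1, thioredoxin reductase, of the same list of NRF2 targets (median -0.36, and -0.14 without control library 5), had -0.71 ± 0.20. Sesn2, a stress protein induced by ATF4, had 1.18 ± 0.34 in a list with a median of 0.14. Of 16 clock genes, 2 were higher and 5 lower at an unadjusted p under 0.05 (5.31% and 9.07% over all genes). The clock median was 0.34, and 0.04 without periodontitis libraries 3, 4 and 5. Nfil3, a repressor, had 2.66 to 11.4 against 12.2 to 16.5 CPM without overlap. Nr1d1, the repressor REV-ERB alpha, had 29.2, 25.1, 37.5, 36.7 and 65.1 CPM in control libraries 1 to 5. In periodontitis libraries 1 to 5 it had 28.2, 35.1, 7.89, 8.05 and 11.2 CPM. The 13 mitochondrially encoded genes had a median of -1.94, which became 0.12 without control library 5.

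The remaining lists are given by their medians. Among markers of other cell types, stomach genes had 0.64 (6 genes tested), exocrine pancreas 0.59 (9), red cells 0.57 (5), smooth muscle 0.24 (7), fibroblasts -0.03 (6), lymphatic vessels 0.03 (5), mast cells 0.35 (5), T cells -0.08 (12), B cells -0.27 (7) and plasma cells -0.22 (7). Stomach genes summed to 93.6 to 419 CPM in control and 10.4 to 595 CPM in periodontitis libraries, and pancreatic genes to 209.9 to 934 and 176 to 1857 CPM, so that both were spread widely within each group. Of mesothelium and granulocyte genes 2 each were tested. Tuft cell genes had -0.20, enteroendocrine genes -0.13 and genes of fetal-like repair -0.28. In metabolism, cholesterol synthesis had -0.03, fat oxidation and ketogenesis 0.08, ion transport -0.30 and nuclear genes of oxidative phosphorylation -0.25, the last with 18 of 19 negative. Genes of antigen presentation had 0.34 for class I and 0.35 for class II, the interferon-induced GTPases 0.02 and the unfolded protein response -0.06. Without periodontitis libraries 3, 4 and 5 the sign turned in stomach (-0.39), smooth muscle (-0.31), mast cells (-0.28), lymphatic vessels (-0.08), B cells (0.28), plasma cells (0.15), T cells (0.05), tuft cells (0.08), enteroendocrine cells (0.05), cholesterol synthesis (0.14), oxidative phosphorylation (0.02), GTPases (-0.10) and the unfolded protein response (0.09). Without control library 5 fibroblasts turned to 0.26 and enteroendocrine genes to 0.05, and class I had 0.22, class II 0.15, red cells 0.32 and fetal-like repair -0.05. None of these lists held a gene past the adjusted test.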

How the data were processed

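PolyA RNA of small intestine was measured in 20 libraries, 4 groups of 5, with groups taken from the labels. The deposited table holds expected counts of RSEM for each gene, all of them whole. The submitters' processing notes name cutadapt 4.8, FastQC 0.11.8, STAR 2.7.8a and RSEM 1.3.3, with the builds GRCh38 and GRCm38; annotation release and strandedness are not given in the sources used here. Of 55491 lines 4 carry no gene ID (0 counts), and coordinates come from GENCODE M21 (55227 gene IDs matched).

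Tests used edgeR 4.0.16 in R 4.3.3. Rounding changed 0 values. The filter filterByExpr kept 17464 genes (at most 0.0838% of a library's counts removed), scaling was by TMM, and a robust quasi-likelihood model with a mean for each of the 4 groups took in all 20 libraries (16 residual degrees of freedom). The SE is the log2 fold change divided by the root of the F statistic. The threshold was 0.05 after Benjamini-Hochberg adjustment over all genes. Named by rule are the called genes, up to 4 genes of smallest p per list and a fixed set of intestinal genes. To these come the 15 highest and 15 lowest log2 fold changes among non-overlapping genes with a mean log2 CPM of at least 1. Others were chosen after their values were seen, which is said beside most of them. The members and the 63 lists (772 of 773 genes found) were chosen with earlier results of these data known, so lists are described by counts and medians without a test. Alternatives were DESeq2 1.42.0, its size factors, limma 3.58.1 (voom), other filters, the 2-week libraries alone, no robust estimation, a replicate block, a term for Y-linked transcripts, removal of mitochondrial genes, and removal of libraries. A few genes of the lists are not reported here. The procedure was tested on simulated counts.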

Additional observations from a re-analysis of the deposited data

Results flagged for a closer look

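Each group of 5 was searched for a library whose gap to its nearest neighbour exceeded 0.71 of the group's range (Dixon's 95% value), in 284 groups of 5 values: library measures and the named genes on the log2(CPM + 0.1) scale. Of these 43 (15.1%) were found. The nominal 5% of the test is no baseline for them, because the genes were chosen from these data and share the same libraries. Of the 43, 36 were control library 5. It had fewer genes with a count (20080) and more mitochondrial counts (29.4%) than the other control libraries. Among genes it lay above them in Tmem236 (562 CPM), Hpgd (327), Lgr5 (36.8), Dpp4 (543), Enpep (610.3), Otc (235), Sult1d1 (825), Ugt2b34 (1600.3), Slc6a4 (49.1), Nr3c1 (187), Il33 (52.5), Ccl25 (551), Il18 (39.3), Defa5 (213), Spink4 (364), Itgam (10.4), Tjp1 (93.0), Igkc (129.8) and Atp2b1 (1297), in CPM. It lay below them in Kif12 (1.29), Asl (7.49), Nfil3 (2.66), Dhx58 (2.82), Bst2 (2.50), Reg3a (11.9), Hmox1 (3.86), Csf1r (16.8), Sesn2 (2.66), Gaa (14.2), Oas1a (6.52), Oas1g (1.77), Plin4 (1.13), Cidec (41.5) and Irf7 (56.2). Control library 4 lay above the others in Slc5a4b (28.4), Fabp6 (510.0), Gstm3 (157) and Txnrd1 (285), and control library 2 below in Mfsd2a (12.4). In the periodontitis group library 4 lay above in Klf15 (2.32), and library 2 below in Bst2 (20.6).

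The log2 fold changes at 2 and 7 weeks differed, by edgeR's test of the difference, in Klf15 (-3.16 on the log2 scale), Cfd (-7.47), Retn (-7.05) and Scd1 (-2.41). The mix of Xist and Ddx3y also differed between the ages, and its part in these values was not tested.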

How the results depend on the processing

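The count of called genes (5 in edgeR) was 0 with DESeq2 size factors (lowest adjusted p 0.0506, 2628 at an unadjusted p under 0.05), 599 with DESeq2 (248 higher, 351 lower), 211 with limma-voom, 17 without robust estimation, 0 with the 2-week libraries alone (2159 unadjusted), 0 with the term for Y-linked transcripts (2028 unadjusted), 0 without periodontitis libraries 3, 4 and 5, and 361 without control library 5 of 2 weeks and periodontitis library 5 of 7 weeks. In all settings with calls the 5 genes were among them. The cause of these differences was not tested. Leaving out 1 library at a time gave 0 to 387 called genes: 0 when control library 1, 2, 3 or 4 or periodontitis library 3, 4 or 5 was the one left out, 49 without control library 5, 96 without periodontitis library 1 and 387 without periodontitis library 2. The 2511 genes at an unadjusted p under 0.05 became 1660 to 2833 on leaving out 1 library and 215 without periodontitis libraries 3, 4 and 5. The 1266 genes without overlap became 1341 to 2329 on leaving out 1 library and 2501 without the 3 libraries. With fewer libraries in a group separation comes more easily by chance, so these counts cannot be compared with that of the full groups. With the replicate number as a block, 0 genes were called and 1669 had an unadjusted p under 0.05. Same-numbered libraries did not deviate together (correlations -0.17 to 0.08), which gives no sign of a pairing by number. These correlations cannot exclude one, because single libraries such as control library 5 stand far apart.

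The log2 fold changes of the 139 genes named kept their sign except in 17 cases. Those were Lgr5 with limma-voom (0.040) and with control library 5 of 2 weeks and periodontitis library 5 of 7 weeks removed (0.29); Il1b and Plin4 with these 2 removed (0.058 and -0.074); and, without periodontitis libraries 3, 4 and 5, Dlk1 (-0.37), Fabp6 (0.32), Cubn (0.12), Muc2 (0.30), Il1b (0.31) and Plin4 (-0.61). The rest came from leaving out 1 library, where Lgr5 ran from -0.46 to 0.29 (positive without control library 5), Il1b from -0.27 to 0.062 (positive without control library 5 or periodontitis library 3 or 4), Plin4 from -0.11 to 0.38 (negative without control library 5 or periodontitis library 4) and Muc2 from -0.28 to 0.092 (positive without control library 4). The depth of control library 5, 14.9 M counts, and 5 libraries a group limit the precision of genes of low level.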
